A study of Mus musculus with 16 samples.

Results

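Among the 55573 genes counted in mouse heart apex, 7 long noncoding RNAs (lncRNAs) were followed by name over the 4 groups of vector and surgery: Mhrt, H19, Meg3, Rian, Mirg, Malat1 and Neat1. They were chosen by gene symbol, with earlier results of these data known, and all 7 passed the filter on low counts that left 16857 genes for testing, 1209 of them lncRNAs. The mice were males of a wild-type background that received AAV9 on postnatal day 1. The vector carried either GFP or Cardinal under the cTnT promoter, which is active in cardiomyocytes, so that cells other than cardiomyocytes were not meant to express it. Mice of either vector underwent a sham operation or transverse aortic constriction (TAC), a banding of the aorta that loads the left ventricle with pressure. This gave 4 mice in each of AAV9-Cardinal TAC, AAV9-Cardinal sham, AAV9-GFP TAC and AAV9-GFP sham, with the apex collected 4 weeks after the operation. Mice are named here by the numbers of their labels. Poly(A) RNA was sequenced in single reads of 50 bases.

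The 7 genes belong to 3 kinds of locus. Mhrt (Myheart) is transcribed in cardiomyocytes from the myosin heavy chain locus, opposite to Myh7, and is known to bind the chromatin remodeller Brg1. H19, Meg3, Rian and Mirg are imprinted and are expressed from the maternal chromosome. H19 lies beside the growth factor gene Igf2 and hosts a microRNA, while Meg3, Rian and Mirg follow one another in the Dlk1-Dio3 region and host microRNAs and small nucleolar RNAs. Malat1 and Neat1 are neighbouring nuclear RNAs of nearly all cell types. Malat1 is found in nuclear speckles, where splicing factors are stored, and Neat1 is the scaffold of paraspeckles.

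Totals lay between 16441997 counts (AAV9-Cardinal sham mouse 4) and 21904589 counts, and 3 counts corresponded to between 0.126 and 0.195 CPM, the counts of a gene scaled to a common library size. The deposited table held a count of 1 in all 16 mice for 183 genes. The labels held for the vector, since Gm12295, the mouse Cardinal gene, had 389 to 2123 counts in AAV9-Cardinal hearts and 70 to 169 in AAV9-GFP hearts. The tissue label held for ventricle. The 8 cardiomyocyte markers summed to between 39041 and 56690 CPM, whereas the 5 atrial markers summed to between 10.7 and 16.9 CPM and the 4 adipocyte markers to at most 0.796 CPM. In bulk tissue, fewer cells of a type and less RNA per cell cannot be told apart.

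Levels can be compared between genes only per length, so CPM was divided by the kilobases of annotated exons. As counted in poly(A) RNA, Mhrt was the highest of the 7, with 117 ± 36.7 CPM per kb (SD, n = 16 mice). It was above the level of 98.6% of tested genes on this scale. It was followed by Neat1 with 28.4 ± 7.53, Malat1 with 20.4 ± 3.71, H19 with 2.83 ± 1.22, Meg3 with 0.610 ± 0.0840, Rian with 0.395 ± 0.0483 and Mirg with 0.0645 ± 0.0286 CPM per kb. Each gene was above the next in all 16 mice except for Neat1 and Malat1, which kept that order in 15 of 16 and whose ranges overlapped. The order depended on which transcript was taken as the length. Per kb of its short transcript, Neat1 stood at 197 ± 52.1 CPM per kb, beside 171 ± 53.8 for Mhrt per kb of its longer transcript. Per kb of their longest transcripts, Rian stood at 0.889 ± 0.109 and Meg3 at 0.758 ± 0.104. Malat1 and the long Neat1 transcript are known to lack a poly(A) tail, so poly(A) capture can miss them. Parts of the Mhrt exons also occur, on the opposite strand, in Myh7 (396 CPM per kb) and Myh6 (2687 CPM per kb). The use of strand in counting is not given in the sources used here. How far capture and shared sequence set the place of Mhrt above Neat1 and Malat1 was not tested.

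**Figure D1:**
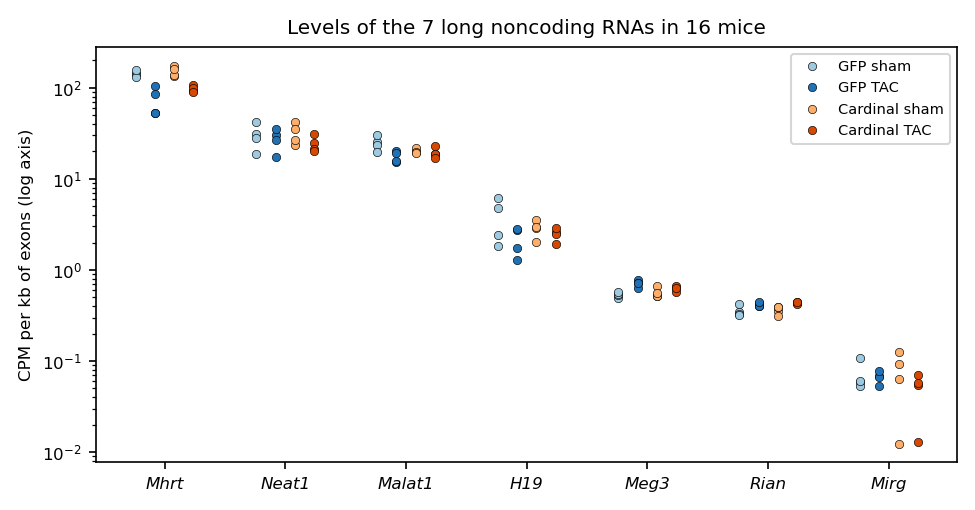
CPM per kb of annotated exons (log axis) for the 7 lncRNAs, each point a mouse, coloured by group (n = 4 a group). The levels run from 174 CPM per kb for the highest Mhrt value down to 0.0124 for the lowest Mirg value, and only Neat1 and Malat1 overlap as neighbours.

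In AAV9-GFP hearts, 3 of the 7 lncRNAs differed between TAC and sham by edgeR's quasi-likelihood test at an adjusted p under 0.05: Mhrt and Malat1 were lower and Meg3 was higher. Of all tested genes, 17.4% were called in this comparison, and of the 1209 lncRNA genes tested 12.6% were, 35 higher and 117 lower. In AAV9-Cardinal hearts, 1 of the 7 was called, Mhrt, which was again lower, beside 6.48% of all tested genes and 4.71% of the lncRNA genes. Between the vectors, 0 of 7 were called after TAC (0.101% of all genes), 0 of 7 after sham surgery (0.0119%), and 0 of 7 for the difference in TAC response between the vectors (0.0119%). The corresponding numbers of all genes at an unadjusted p under 0.05 were 2528, 437 and 1722. DESeq2 also called 0 of the 7 in these 3 comparisons, and the members at an unadjusted p under 0.05 in edgeR are given with their genes below. The values of every mouse lay apart between sham and TAC for 2 of 7 in AAV9-GFP hearts (Mhrt and Meg3), where 20.3% of all tested genes did not overlap, and for 2 of 7 in AAV9-Cardinal hearts (Mhrt and Rian), where 13.7% did not.

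**Figure D2:**
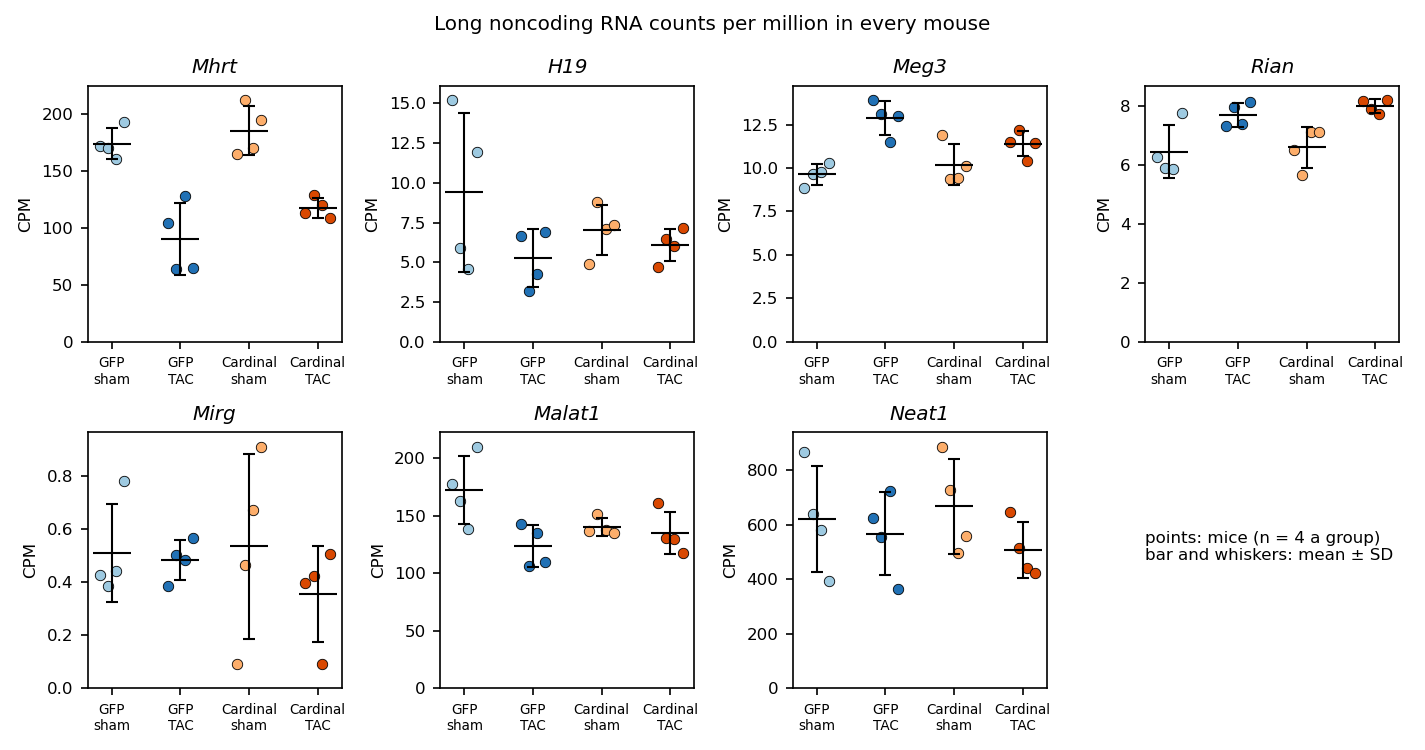
CPM of each lncRNA in every mouse (points), with the mean ± SD of the 4 mice of a group (bar and whiskers), each panel on its own axis from 0. Mhrt falls below every sham mouse in all 8 TAC mice, from 160.4 CPM or more to 129 CPM or less.

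The Mhrt gene (ENSMUSG00000097652) lies on the plus strand of chr14:54968678-54974349 (GRCm38), between Myh6 and Myh7 and opposite to both. The annotation gives 2 transcripts. The longer one, of 828 bases in 5 exons, runs into the 3' part of Myh7, and 484 of its bases (58.5%) lie opposite Myh7 exons. The other, of 447 bases, has none. The first exon and the start of the last exon of the longer transcript are shown from GRCm38 because they set a part of Mhrt outside Myh7 beside a part opposite it, with bases opposite a Myh7 exon in capitals.
Mhrt first exon (chr14:54968787-54968847, plus strand): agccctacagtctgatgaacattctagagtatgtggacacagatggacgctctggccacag
Mhrt start of last exon (chr14:54973878-54974127, plus strand): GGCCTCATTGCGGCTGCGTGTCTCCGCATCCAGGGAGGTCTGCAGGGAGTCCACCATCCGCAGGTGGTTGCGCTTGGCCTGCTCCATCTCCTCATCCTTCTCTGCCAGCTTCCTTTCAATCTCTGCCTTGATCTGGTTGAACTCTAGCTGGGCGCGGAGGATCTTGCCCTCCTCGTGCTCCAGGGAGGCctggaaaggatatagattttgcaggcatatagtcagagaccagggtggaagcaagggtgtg
Of the 50-base stretches of Mhrt exons, 25.9% also occurred in Myh7 and 17.8% in Myh6, on the opposite strand. The use of strand in counting is not given in the sources used here, so reads of Mhrt and of its antisense partner in these stretches cannot be told apart.

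**Figure D3:**
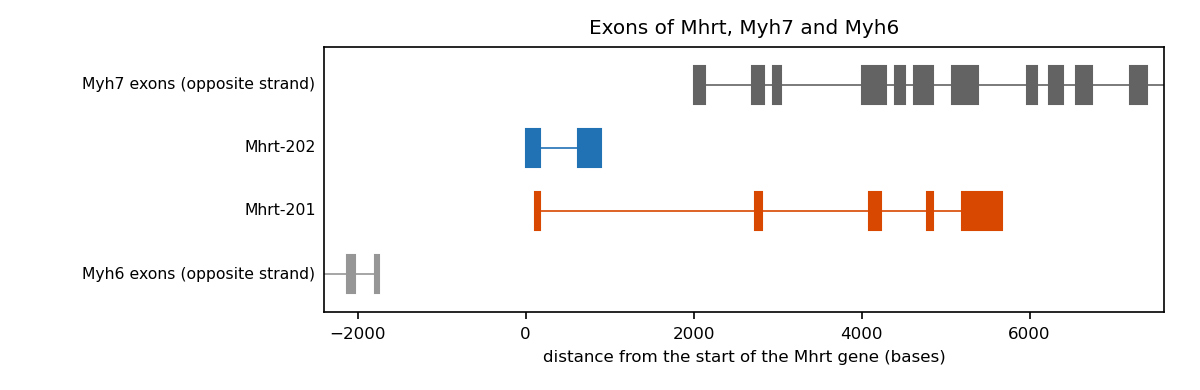
Exons (boxes) of Myh7, the 2 Mhrt transcripts and Myh6 by distance from the start of the Mhrt gene, in bases. Of the 5 exons of the longer Mhrt transcript (orange), all but the first reach into Myh7 exons, and Myh6 begins 1751 bases before the Mhrt gene.

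Mhrt was 174 ± 13.6 CPM in AAV9-GFP sham hearts, with 172, 170.2, 160.4 and 193 CPM in mice 1, 2, 3 and 4. After TAC it was 90.2 ± 31.4 CPM, with 105, 63.5, 128 and 65.0 CPM in mice 1, 3, 4 and 7. All TAC mice were below all sham mice, and the TAC mice fell into a higher and a lower pair. The log2 fold change was -0.95 ± 0.18 (SE), a level 0.519 times that of sham hearts, with an adjusted p of 0.00194 in edgeR's quasi-likelihood test. It stayed between -1.16 and -0.81 with any 1 mouse left out, with adjusted p of at most 0.00680. An exact two-sided permutation test of the 4 against 4 mice gave p = 0.029, the smallest it can give.

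With the Cardinal vector, Mhrt was 185 ± 21.9 CPM in sham hearts, from 165, 212, 169.8 and 195 CPM in mice 1, 2, 3 and 4. After TAC it was 118 ± 8.73 CPM, from 113, 129, 119.7 and 109 CPM in mice 1, 4, 5 and 6. The groups did not overlap. The log2 fold change was -0.66 ± 0.18, a level 0.635 times that of sham hearts (adjusted p = 0.0400, edgeR's quasi-likelihood test), and the exact permutation p was again 0.029. This call was close to the threshold. With 1 mouse left out the fold change stayed between -0.71 and -0.59, but the adjusted p was between 0.0144 and 0.116. It was above the threshold without any one of the 8 mice compared (0.0525 to 0.116), without AAV9-GFP sham mouse 2 (0.0534) and without AAV9-GFP sham mouse 3 (0.0513), and it was 0.0706 with no filter on low counts.

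Between the vectors after TAC, Mhrt was higher with Cardinal by 0.38 ± 0.18 on the log2 scale (95% interval 0.01 to 0.76, unadjusted p = 0.0456, adjusted p = 0.321, edgeR's quasi-likelihood test), and the 4 mice of each vector overlapped. In sham hearts the difference was 0.09 ± 0.17. The TAC response differed between the vectors by 0.29 ± 0.25 (95% interval -0.24 to 0.82, adjusted p = 0.728), so that the interval held both no difference and a difference nearly as large as the response in AAV9-GFP hearts. Both values turned on single AAV9-GFP TAC mice. The difference after TAC was 0.25 without mouse 3, 0.26 without mouse 7 and 0.60 without mouse 4, and the difference in response was 0.15, 0.16 and 0.51.

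Of the neighbouring myosin genes, Myh6, the fast adult myosin heavy chain of the mouse ventricle, moved with Mhrt, and Myh7, the slow fetal form, did not. Myh6 was 19200.2 ± 476 CPM in AAV9-GFP sham hearts and 15329 ± 1845 CPM after TAC, a log2 fold change of -0.32 ± 0.07 (adjusted p = 0.00416, edgeR's quasi-likelihood test). With Cardinal it was 19869.7 ± 1171 CPM and 17884 ± 512 CPM (log2 fold change -0.15 ± 0.07, adjusted p = 0.205). Myh7 was 3336 ± 20.5 and 3511 ± 362 CPM with GFP, and 3377 ± 169 and 3411 ± 77.0 CPM with Cardinal (log2 fold changes 0.07 ± 0.06 and 0.01 ± 0.06). Both genes share sequence with Mhrt on the opposite strand, and both had many times its counts. The part of reads from Myh6, which fell with Mhrt, in the counts of Mhrt was not tested.

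Over the 16 mice, the gene of all 16857 whose log2 CPM was most like that of Mhrt by Pearson's r was Myh6 (r = 0.955), followed by Plekha5 and Dglucy (both r = 0.954). All of these points include the difference between sham and TAC. Taken as deviations from the 4 group means, Myh6 was again the closest gene (r = 0.905), with Dglucy in place 3 (r = 0.842) and Plekha5 in place 16 (r = 0.775). The r with Myh7 was -0.45 over all mice and -0.43 for the deviations. The AAV9-GFP TAC mice 3 and 7, lowest for Mhrt, were also lowest for Myh6, with 13308 and 14272 CPM against 17236 and 16499 CPM in mice 1 and 4.

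**Figure D4:**
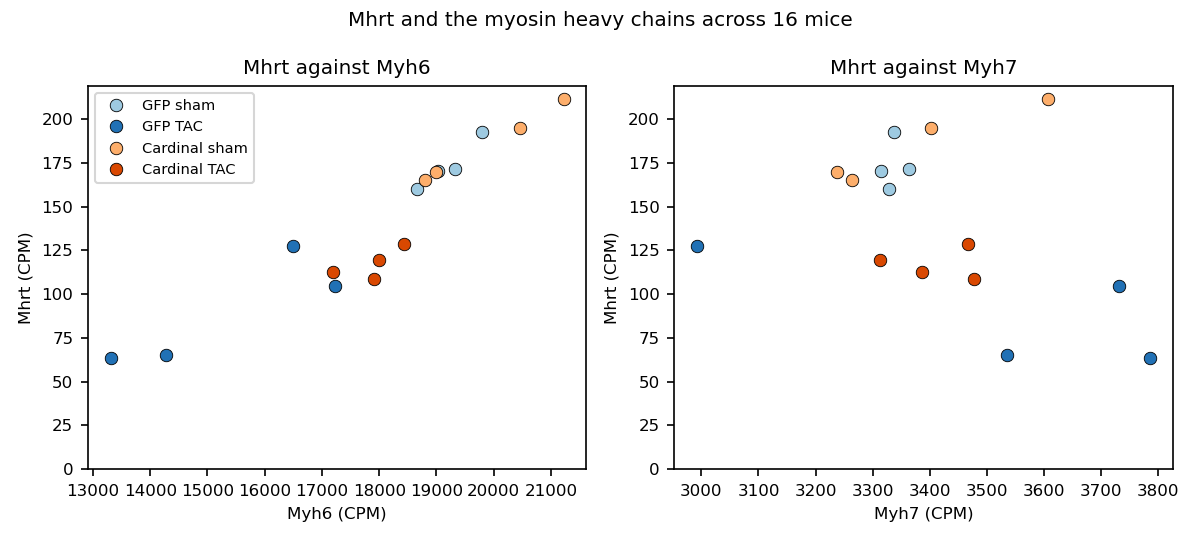
Mhrt CPM against Myh6 CPM (left) and Myh7 CPM (right), each point a mouse, coloured by group (n = 4 a group, horizontal axes not from 0). Mhrt and Myh6 rise together over the 16 mice (r = 0.955 of log2 CPM), and Mhrt and Myh7 do not (r = -0.45), while both myosin genes share sequence with Mhrt.

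Of the 7 genes fixed for the myosin locus and the proteins tied to Mhrt, Myh6 and Parp1 (a poly(ADP-ribose) polymerase; log2 fold change -0.30 ± 0.07, adjusted p = 0.0100) fell after TAC in AAV9-GFP hearts. The other 5, among them Smarca4, which encodes Brg1, and the deacetylase genes Hdac2 and Hdac9, were not called. This was 2 of 7 beside the 17.4% of all tested genes, and the list's median log2 fold change was -0.26, beside 0.01 over all genes. In AAV9-Cardinal hearts 0 of the 7 were called, beside 6.48% (median -0.15).

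Cardiomyocyte markers moved in the same comparison as Mhrt. In AAV9-GFP hearts 7 of the 8 fell after TAC, among them Atp2a2, the calcium pump of the sarcoplasmic reticulum (-0.55), and Pln, its inhibitor (-0.50), and their summed level went from between 52979 and 56690 CPM to between 39041 and 47343 CPM. In AAV9-Cardinal hearts 2 of 8 fell, Pln (-0.29) and Atp2a2 (-0.25), and the sums were 51282 to 56546 CPM in sham and 47684 to 52467 CPM in TAC hearts. The 8 fibroblast markers summed to between 519 and 588 CPM in AAV9-GFP sham and between 904 and 1169 CPM in AAV9-GFP TAC hearts, with 5 of 8 called higher, led by Postn, a matrix protein of activated fibroblasts (2.86). With Cardinal they summed to between 505 and 564 CPM in sham and between 529.6 and 990.4 CPM in TAC hearts, with 1 of 8 called, Postn (1.37). The median sums in sham and TAC hearts were 549 and 943 CPM with GFP, and 510 and 571 CPM with Cardinal. The shares of all tested genes called for TAC were 17.4% with GFP and 6.48% with Cardinal. Endothelial markers called were 2 of 7 with GFP and 1 of 7 with Cardinal. Macrophage markers called were 1 of 7 and 0 of 7, and smooth muscle and pericyte markers 2 of 7 and 1 of 7. None of the markers of these lists was at 0 in all mice. The part of these shifts in the results for Mhrt and the other lncRNAs was not tested.

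H19 (ENSMUSG00000000031) lies on the minus strand of chr7:142575529-142578143 (GRCm38) and carries the miR-675 hairpin in an exon. The mature sequences are from RefSeq, on GRCm38, with the seed (bases 2 to 8) in capitals, and are shown as the small RNAs that the host transcript yields. The poly(A) libraries did not measure them.
mmu-miR-675-5p: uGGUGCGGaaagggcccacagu
mmu-miR-675-3p: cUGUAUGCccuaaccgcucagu
H19 is abundant in the fetal heart and is known to be shut down after birth. In these adult hearts it had 76 to 321 counts. In AAV9-GFP sham hearts it varied most, with 15.2, 5.91, 4.56 and 11.9 CPM in mice 1, 2, 3 and 4 (9.39 ± 5.02). In AAV9-GFP TAC hearts it had 6.69, 3.19, 4.29 and 6.91 CPM in mice 1, 3, 4 and 7 (5.27 ± 1.83), within a range that overlapped that of sham hearts.

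The H19 log2 fold change after TAC was -0.84 ± 0.33 with GFP (unadjusted p = 0.0243, adjusted p = 0.103, edgeR's quasi-likelihood test; exact permutation p = 0.23). It did not pass the threshold with all 16 mice, and leaving out 1 mouse moved it both ways, to -1.06 without AAV9-GFP sham mouse 3 (adjusted p = 0.0344) and to -0.50 without AAV9-GFP sham mouse 1 (adjusted p = 0.344). With Cardinal, H19 was 7.04 ± 1.59 CPM in sham and 6.10 ± 1.01 CPM in TAC hearts (-0.20 ± 0.34). The spread of H19 between mice of a group, a biological coefficient of variation of 0.321, was above that of 93.6% of tested genes. Genes most like H19 over the 16 mice were Tmed10-ps (r = 0.800), Tbc1d16 (r = 0.795) and Srprb (r = 0.785). By deviations from the group means these were in places 11, 19 and 95.

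Igf2, the paternally expressed partner of H19, could not be read from its own row alone. It had 14 to 329 counts, and in AAV9-GFP sham hearts the overlapping gene Gm49394 ranged from 0 to 210 counts. Their sum, formed after these values were seen, was steadier, with 13 ± 2.84 CPM in AAV9-GFP sham, 10.2 ± 1.68 in AAV9-GFP TAC, 12.3 ± 1.23 in AAV9-Cardinal sham and 11.5 ± 1.62 in AAV9-Cardinal TAC hearts. The difference after TAC in AAV9-GFP hearts was -0.34 on the log2 scale (exact permutation p = 0.17). Of the 9 genes fixed for the H19 region, 4 passed the filter and 0 were called in either TAC comparison.

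Meg3, Rian and Mirg lie on the plus strand of chromosome 12, Meg3 (ENSMUSG00000021268) at chr12:109541001-109571726, Rian (ENSMUSG00000097451) at chr12:109603940-109661716 and Mirg (ENSMUSG00000097391) at chr12:109729764-109749460 (GRCm38). By the RefSeq microRNA table, the Meg3 gene holds 1 hairpin, Rian holds 3 and Mirg holds 14. GENCODE places Mir1906-1, which has no entry in that table, in a Meg3 exon as well, and 13 small nucleolar RNA genes within Rian. The Meg3 promoter is shown because Meg3 is the one of the 3 that passed the threshold. It spans 250 bases before to 50 after the start in RefSeq (chr12:109540746-109541045, GRCm38, plus strand), with the cyclic AMP response element TGACGTCA and the run TTATATAA in capitals.
Meg3 promoter: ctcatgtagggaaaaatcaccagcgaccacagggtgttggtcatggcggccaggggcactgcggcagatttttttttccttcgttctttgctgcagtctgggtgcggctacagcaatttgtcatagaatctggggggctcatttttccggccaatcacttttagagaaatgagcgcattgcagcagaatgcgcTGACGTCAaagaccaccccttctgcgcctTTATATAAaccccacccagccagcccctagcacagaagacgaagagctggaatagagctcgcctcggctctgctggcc
The element TGACGTCA, which reads the same on both strands, began 57 bases before the start and was present in 1.79% of 32817 promoter windows of this length. The motif TATATAA on either strand was present in 3.25%, and overlaps its own reverse complement TTATATA here. The window of another Meg3 start, further downstream, held no match to either motif, and neither did those of Mhrt, Rian, Mirg and Malat1. No window of H19 or Neat1 was used here.

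Meg3 rose after TAC in AAV9-GFP hearts. It was 8.84, 9.65, 9.80 and 10.3 CPM in sham mice 1, 2, 3 and 4 (9.64 ± 0.591) and 13.9, 13.1, 11.5 and 13 CPM in TAC mice 1, 3, 4 and 7 (12.9 ± 0.997). The groups did not overlap. The log2 fold change was 0.42 ± 0.09, a level 1.34 times that of sham hearts, with an adjusted p of 0.00341 in edgeR's quasi-likelihood test and an exact permutation p of 0.029. It was between 0.38 and 0.47 with any 1 mouse left out, with adjusted p of at most 0.0138. The biological coefficient of variation of Meg3 was 0.0738.

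With Cardinal, Meg3 was 11.9, 9.34, 9.42 and 10.1 CPM in sham mice 1, 2, 3 and 4 (10.2 ± 1.20) and 11.5, 12.2, 10.4 and 11.5 CPM in TAC mice 1, 4, 5 and 6 (11.4 ± 0.719). These groups overlapped, and the log2 fold change was 0.16 ± 0.09 (adjusted p = 0.305, edgeR's quasi-likelihood test). The TAC response of Meg3 differed between the vectors by -0.26 ± 0.12 (95% interval -0.52 to 0.00, unadjusted p = 0.0482, adjusted p = 0.484), and the vectors differed after TAC by -0.18 ± 0.08 (adjusted p = 0.340). A response in AAV9-GFP hearts only was therefore not established by the test of the difference.

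Rian had values of 6.29, 5.91, 5.88 and 7.77 CPM in AAV9-GFP sham mice 1, 2, 3 and 4 and 7.33, 7.97, 7.39 and 8.13 CPM in AAV9-GFP TAC mice 1, 3, 4 and 7. Only sham mouse 4 reached into the TAC range. The log2 fold change was 0.25 ± 0.09 (unadjusted p = 0.0158, adjusted p = 0.0768, edgeR's quasi-likelihood test; exact permutation p = 0.086). With 1 mouse left out it was between 0.21 and 0.35, with an adjusted p between 0.0105 and 0.197. It passed the threshold only without AAV9-GFP sham mouse 4 (0.35, adjusted p = 0.0105). In AAV9-Cardinal hearts, Rian had 6.51, 5.67, 7.11 and 7.14 CPM in sham mice 1, 2, 3 and 4 and 8.19, 7.90, 7.73 and 8.20 CPM in TAC mice 1, 4, 5 and 6. There every TAC mouse was above every sham mouse, with a log2 fold change of 0.28 ± 0.09 (unadjusted p = 0.00936, adjusted p = 0.0925; exact permutation p = 0.029). With 1 mouse left out the fold change was between 0.21 and 0.32 and the adjusted p between 0.0436 and 0.249. It passed the threshold only without AAV9-GFP sham mouse 4, a mouse outside this comparison. The 2 responses differed by 0.03 ± 0.13 (95% interval -0.26 to 0.31).

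Mirg, the most distal of the 3, was at the edge of detection with 2 to 16 counts. Its hairpins include that of miR-410, whose arms are given as RefSeq has them with the seed in capitals, beside the arms of miR-770, the microRNA in a Meg3 exon. The seeds of these arms all differ.
mmu-miR-410-5p: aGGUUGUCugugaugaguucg
mmu-miR-410-3p: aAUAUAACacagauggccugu
mmu-miR-770-5p: aGCACCACgugucugggccacg
mmu-miR-770-3p: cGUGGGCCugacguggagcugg
Mirg was 0.508 ± 0.184 CPM in AAV9-GFP sham, 0.484 ± 0.0745 in AAV9-GFP TAC, 0.534 ± 0.347 in AAV9-Cardinal sham and 0.355 ± 0.181 in AAV9-Cardinal TAC hearts. AAV9-Cardinal sham mouse 1 and AAV9-Cardinal TAC mouse 5 each had 2 counts, under the floor of 3. The log2 fold changes after TAC were -0.07 ± 0.47 with GFP and -0.52 ± 0.50 with Cardinal, so that at this depth a change of the size seen for Meg3 was not detectable.

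The paternally expressed genes of the region were nearly silent. Dlk1, a ligand-like membrane protein of the Notch family, had 0 counts in all 16 mice, Rtl1, a retrotransposon-derived gene, had 0 to 4, and Dio3, a deiodinase that inactivates thyroid hormone, had 0 to 4. Of the 8 genes fixed for the region, 4 passed the filter and 0 were called after TAC with either vector. Genes most like Meg3 over the 16 mice were Wdr77 (r = 0.906), Gm7392 (r = 0.899) and Copg1 (r = 0.881). Those most like Rian were Nckap1 (r = 0.921), Zw10 (r = 0.917) and Gm5560 (r = 0.914). These r include the differences between the groups. As deviations from the group means, the genes named for Meg3 had r = 0.647, 0.731 and 0.526 (places 96, 25 and 370). Those named for Rian had r = 0.816, 0.796 and 0.791 (places 11, 19 and 20). Genes most like Mirg, from its 2 to 16 counts, were 3110056K07Rik (r = 0.885), Gm28043 (r = 0.799) and Gm20431 (r = 0.785). Neither of the other genes of the cluster was among the 3 nearest of any of them. As deviations from the group means, Meg3 and Rian had r = 0.240 (rho = 0.191, permutation p = 0.466), and Rian and Mirg had r = 0.468 (rho = 0.674, permutation p = 0.0892).

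Of 39 other imprinted genes, 31 passed the filter. After TAC in AAV9-GFP hearts 3 rose and 6 fell, with a median log2 fold change of -0.21. Those with the largest changes were Slc38a4, an amino acid transporter (0.85 ± 0.18, adjusted p = 0.00512), Mest, a hydrolase-like gene (0.69 ± 0.22, 0.0454), Snrpn, a component of small nuclear ribonucleoproteins (-0.64 ± 0.13, 0.00285), and Ppp1r9a, which encodes the actin-binding protein neurabin (-0.56 ± 0.07, 9.96e-05; edgeR's quasi-likelihood test). With Cardinal, Grb10, a growth factor receptor adaptor, rose (0.32 ± 0.09, 0.0462) and 4 fell, among them Peg3, a zinc finger protein (-0.64 ± 0.11, 0.00594), and Ppp1r9a (-0.49 ± 0.07, 0.00175). The list moved in both directions, with 9 of 31 called beside the 17.4% of all genes, and 5 of 31 beside 6.48%.

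Malat1 (ENSMUSG00000092341) and Neat1 (ENSMUSG00000092274) lie on the minus strand of chromosome 19, at chr19:5795690-5802672 and chr19:5824708-5845478 (GRCm38). Neat1 ends in 2 ways. The short transcript, of 3004 bases, is polyadenylated, while the long one, of 20771 bases, builds the paraspeckle and is known to end, as Malat1 does, in a genome-encoded A-rich tract that forms a triple helix in place of a poly(A) tail. The last 100 bases of both are shown from GRCm38 because poly(A) capture reads them differently, with the poly(A) signal and the A-rich end in capitals.
Neat1 short transcript end (chr19:5842307-5842406, minus strand): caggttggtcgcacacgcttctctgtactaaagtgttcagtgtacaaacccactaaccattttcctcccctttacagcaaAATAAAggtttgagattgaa
Neat1 long transcript end (chr19:5824708-5824807, minus strand): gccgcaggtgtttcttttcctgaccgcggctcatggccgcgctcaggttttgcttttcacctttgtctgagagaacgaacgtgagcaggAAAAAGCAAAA
The gene counts do not separate the 2 forms.

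Malat1 was lower after TAC in AAV9-GFP hearts. It was 178, 163, 138 and 209.7 CPM in sham mice 1, 2, 3 and 4 (172 ± 29.8) and 143, 106, 135 and 109.9 CPM in TAC mice 1, 3, 4 and 7 (124 ± 18.1). The groups overlapped, since sham mouse 3 was below TAC mouse 1. The log2 fold change was -0.48 ± 0.13, a level 0.718 times that of sham hearts (adjusted p = 0.0158, edgeR's quasi-likelihood test). The exact permutation p was 0.057. The call was lost without AAV9-GFP sham mouse 4 (-0.37, adjusted p = 0.0522), without AAV9-GFP TAC mouse 3 (-0.41, 0.0602) or without AAV9-GFP TAC mouse 7 (-0.42, 0.0531).

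In AAV9-Cardinal hearts, Malat1 was 137, 152, 138 and 135 CPM in sham mice 1, 2, 3 and 4 (140.3 ± 7.79) and 161, 131, 130.1 and 118 CPM in TAC mice 1, 4, 5 and 6 (135 ± 18.6). These groups overlapped, with a log2 fold change of -0.06 ± 0.13 (adjusted p = 0.863, edgeR's quasi-likelihood test). The TAC response differed between the vectors by 0.42 ± 0.18 (95% interval 0.04 to 0.80, unadjusted p = 0.0309, adjusted p = 0.438). The vectors differed in sham hearts by -0.29 ± 0.13 (unadjusted p = 0.0327, adjusted p = 1) and in TAC hearts by 0.13 ± 0.13 (adjusted p = 0.698). Genes most like Malat1 over the 16 mice were Ptgfr (r = 0.903), Atxn1 (r = 0.851) and Stk39 (r = 0.836). By deviations from the group means these were in places 1, 4 and 15.

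Neat1 had the most counts of the 7, from 8062 to 19612, and wide spread between mice of a group. It was 869, 642, 583 and 394 CPM in AAV9-GFP sham mice 1, 2, 3 and 4 and 624, 555, 725 and 363 CPM in AAV9-GFP TAC mice 1, 3, 4 and 7. In AAV9-Cardinal hearts it was 886, 729, 495 and 561 CPM in sham mice 1, 2, 3 and 4 and 648, 516, 440.0 and 423 CPM in TAC mice 1, 4, 5 and 6. All groups overlapped. Its biological coefficient of variation was 0.244, above that of 89.6% of tested genes, so that depth was not what limited its precision.

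The log2 fold changes of Neat1 after TAC were -0.13 ± 0.25 with GFP (95% interval -0.66 to 0.39) and -0.40 ± 0.25 with Cardinal (95% interval -0.93 to 0.13), with adjusted p of 0.783 and 0.381 in edgeR's quasi-likelihood test. Genes most like Neat1 over the 16 mice were Idh1 (r = 0.889), Gnpda2 (r = 0.880) and Pik3ip1 (r = 0.875). By deviations from the group means these were in places 7, 1 and 12. Malat1 was not among them, and as deviations from the group means the 2 neighbours had r = 0.239 (rho = 0.338, permutation p = 0.457).

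Of the 13 paraspeckle proteins listed, 12 were tested and 0 were called in either TAC comparison by edgeR's quasi-likelihood test (medians -0.07 and 0.00). Of the 8 nuclear speckle proteins, 3 fell after TAC in AAV9-GFP hearts: the splicing factor gene Srsf3 (-0.28 ± 0.09, adjusted p = 0.0428) and the genes of the scaffold proteins Son (-0.22 ± 0.06, 0.0271) and Srrm2 (-0.18 ± 0.05, 0.0293), with 0 of 8 called in AAV9-Cardinal hearts. Of all tested genes 17.4% and 6.48% were called in these comparisons. Of 5 protein-coding neighbours of Malat1 and Neat1, 4 were tested and 3 rose after TAC in AAV9-GFP hearts, opposite to Malat1: Slc25a45, a mitochondrial carrier (0.54 ± 0.15, 0.0230), Frmd8 (0.40 ± 0.08, 0.00347) and Ltbp3, a binding protein of latent TGF-beta (0.30 ± 0.07, 0.0126). None of these 4 was called with Cardinal.

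Of 36 other named lncRNAs, 22 were tested and the same 3 were called after TAC with both vectors. In AAV9-GFP hearts this share was near the 17.4% of all genes and the 12.6% of lncRNA genes called, and in AAV9-Cardinal hearts those shares were 6.48% and 4.71%. Snhg18, a small nucleolar RNA host, rose by 0.62 ± 0.13 with GFP and 0.50 ± 0.13 with Cardinal. Peg13, an imprinted RNA that was also counted among the imprinted genes above, changed by -0.43 ± 0.07 and -0.27 ± 0.07. Firre, a nuclear RNA of the X chromosome, changed by -0.33 ± 0.08 and -0.38 ± 0.08 (adjusted p of at most 0.0340 for all 3, edgeR's quasi-likelihood test). The 2 TAC comparisons use different mice. The 5 pressure overload markers rose with both vectors, led by the skeletal actin gene Acta1 (4.22 ± 0.26 with GFP and 2.86 ± 0.24 with Cardinal) and by the natriuretic peptide gene Nppa (3.58 ± 0.44) with GFP. After TAC, Acta1 was lower with Cardinal than with GFP (-1.44 ± 0.23, adjusted p = 0.0392, edgeR's quasi-likelihood test), the 1 of the 5 called between the vectors, and the list's median difference was -0.65. The Acta1 call was lost with the replicate block described below, where 0 genes were called in this comparison. The same held without AAV9-Cardinal sham mouse 2 or 3, or without AAV9-Cardinal TAC mouse 4, 5 or 6. It also held without AAV9-GFP sham mouse 2 or 3, or without AAV9-GFP TAC mouse 3.

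**Figure D5:**
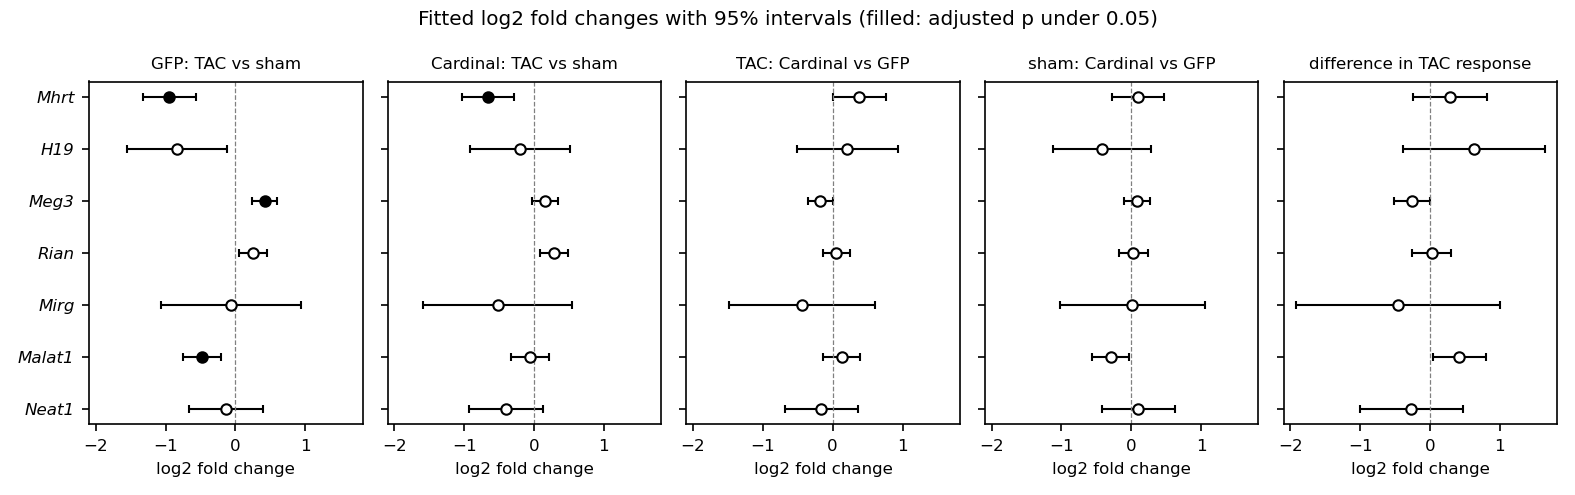
Fitted log2 fold changes of the 7 lncRNAs (points) with 95% intervals (bars) in the 5 comparisons, filled where the adjusted p is under 0.05. The filled points are Mhrt, Meg3 and Malat1 for TAC in AAV9-GFP hearts and Mhrt for TAC in AAV9-Cardinal hearts.

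The 7 lncRNAs were also compared with one another over the 16 mice, as deviations from the group means, in 21 pairs. With p-values adjusted over the pairs, 0 passed 0.05. The lowest unadjusted permutation p of Pearson's r was that of Mhrt and Malat1 (r = 0.625, rho = 0.629, p = 0.0254, adjusted p = 0.469), whose r without the 2 mice farthest from the median of Mhrt was 0.591. Next was Rian and Neat1 with opposite signs (r = -0.603, rho = -0.585, permutation p = 0.050, adjusted p = 0.469), whose r without 2 mice was -0.490. By Spearman's rho the lowest permutation p were those of Rian and Mirg (rho = 0.674, p = 0.0186) and of Mirg and Neat1 (rho = -0.609, p = 0.0224), with an adjusted p of 0.235 for both.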

How the data were processed

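Heart apex RNA of 16 mice, 4 in each of 4 groups, was sequenced. The deposited values are given as raw counts of reads for each Ensembl gene, not normalized. Whether some, such as the 183 genes with a count of 1 in every mouse, are estimates was not tested. The labels' processing notes list FastQC, HISAT2 2.1.0, edgeR 3.26.1 and the build GRCm38. The counting program, annotation and use of strand are not given in the sources used here. No column was left unused. Genes were named with GENCODE M21 on GRCm38, which matched 55394 of 55573 identifiers. The 7 lncRNAs and all gene lists were chosen with earlier results of these data known.

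The analysis used edgeR 4.0.16 in R 4.3.3: TMM normalization, filterByExpr over the 4 groups, and 1 quasi-likelihood model for the 16 mice, with 5 contrasts, with p-values adjusted by Benjamini-Hochberg over 16857 genes and a threshold of 0.05. Errors of log2 fold changes are standard errors of that fit, and errors of CPM are SD over mice. Log2 CPM used a prior count of 2. Single lncRNAs were tested by two-sided exact permutation, 4 against 4 mice (70 labelings, 28 tests). Those permutation p-values were not adjusted over the 28 tests. Pairs were tested by 100000 permutations within groups. The labels give separate mice. Replicates of a group differed beyond counting noise (chi-square per degree of freedom 5.44 to 16.3). The floor of 3 counts covers counting error only.

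Named genes were the 7 lncRNAs, the 3 genes closest to each by Pearson's r, up to 4 called genes of each list with the largest change, and Myh6, Myh7, Igf2, Dlk1, Rtl1 and Dio3. Gm49394, Smarca4, Hdac2 and Hdac9 were named outside that rule. Alternatives were DESeq2 1.42.0, its size factors in edgeR, other filters, only the mice compared, a replicate block, a robust spread estimate, mitochondrial genes left out, other log2 CPM settings and each mouse left out. The sum of Igf2 and Gm49394 and other transcript lengths were added after seeing the data.

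Data were simulated for TAC in AAV9-GFP hearts, with 16651 genes tested and 200 genes changed. There edgeR recovered 43% of the 1.5-fold and 80% of the 2-fold changes and made 2 false calls. The real comparison called 2934 genes, so these shares do not give its power. Plots were made in Python 3.11.15.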

Additional observations from a re-analysis of the deposited data

Results flagged for a closer look

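Of 28 sets of 4 mice (7 lncRNAs in 4 groups), 1 held a mouse that stood apart from the other 3 by Dixon's test at the 95% level, where chance alone gives about 1 in 20. Mirg was 0.782 CPM in AAV9-GFP sham mouse 4, from 16 counts, and the next mouse of the group was at 0.441 CPM. The gap took up 0.857 of the range of the group.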

How the results depend on the processing

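Over the alternatives other than leaving out a mouse, 65 of the 79 counts of calls stayed within 1.5 times the main count, and 345 of 358 values of single lncRNAs or pairs kept their direction and their side of the threshold. The cause of the changes was not tested. In AAV9-GFP hearts, Mhrt and Meg3 were called under all of them, and Malat1 under all but the replicate block. The call of Mhrt in AAV9-Cardinal hearts was lost, leaving 0 lncRNAs called there, with no filter on low counts (log2 fold change -0.65, adjusted p = 0.0706) and with the replicate block (-0.71, adjusted p = 0.125). With no filter, 615 genes were called there in all. Between the vectors after TAC, the count of all genes called was 17, and it was 419 with DESeq2, 3 with no filter, 35 with at least 1 CPM in at least 4 mice, 3 with only the mice compared, 0 with the replicate block and 30 with mitochondrial genes left out, while 0 of the 7 lncRNAs were called in each. DESeq2 called 5 genes between the vectors in sham hearts and 146 for the difference in TAC response.

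Deviations of same-numbered mice across genes had r between -0.04 and 0.21, and those of differently numbered mice between -0.19 and 0.22. The highest r of same-numbered mice was above that of the others for TAC with GFP (0.15 against 0.09) and with Cardinal (0.13 against 0.12). It was also above for the vectors after TAC (0.21 against 0.085), but not in sham hearts (0.10 against 0.22). These values do not settle whether the numbers pair the samples. With the replicate block, 31 genes were called for TAC in AAV9-Cardinal hearts, 1 between the vectors in sham hearts and 1 for the difference in TAC response. Under the block, the log2 fold change of Malat1 in AAV9-GFP hearts was -0.42 (adjusted p = 0.0522), that of Neat1 there turned to 0.12, and that of Mirg between the vectors in sham hearts turned to -0.0032.

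With CPM from the total count, the median of all genes was 0.16 on the log2 scale for TAC in AAV9-GFP hearts. Mirg (0.11) and Neat1 (0.037) then turned positive there, and Rian between the vectors after TAC turned to -0.036. Relative to the median of all genes, which was -0.094 in the last comparison, Neat1 and Mirg were lower and Rian was higher on both scales. The exact permutation p of Rian for TAC in AAV9-GFP hearts and of Meg3 between the vectors after TAC became 0.029. Without the 2 mice farthest from the median, r turned to 0.310 for Meg3 and Mirg, 0.106 for Meg3 and Malat1, and -0.052 for Rian and Malat1.

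With 1 mouse left out, 0 to 2 lncRNAs were called for TAC in AAV9-Cardinal hearts, and 384 (without AAV9-Cardinal TAC mouse 5) to 1436 genes in all. All genes called ranged from 0 to 535 between the vectors after TAC (535 without AAV9-Cardinal TAC mouse 1), between 1 and 3 for the vectors in sham hearts and between 2 and 79 for the difference (79 without AAV9-Cardinal TAC mouse 1). Log2 fold changes that changed sign were those of Mirg (-0.18 to 0.21) and Neat1 (-0.30 to 0.071) for TAC in AAV9-GFP hearts, of Malat1 (-0.15 to 0.0068) for TAC in AAV9-Cardinal hearts, of Mirg (-0.32 to 0.39), Neat1 (-0.064 to 0.31), Meg3 (-0.0040 to 0.12) and Rian (-0.013 to 0.13) between the vectors in sham hearts, and of Rian (-0.075 to 0.068) for the difference. None of these was called. Depth limited Mirg most, at 2 to 16 counts, and at 110 to 190 counts for Rian and 156 to 324 for Meg3 counting error was about as large as the spread between mice.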

Other observations

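The ratio of Mhrt to Myh6 within a mouse was lower after TAC with both vectors in these mice, a pattern noted in the data that did not pass adjustment. The ratio of CPM was 0.00904 ± 0.000488 (SD, n = 4) in AAV9-GFP sham and 0.00578 ± 0.00146 in AAV9-GFP TAC hearts, and 0.00930 ± 0.000547 and 0.00657 ± 0.000374 with Cardinal, with no overlap between sham and TAC. The exact permutation p was 0.029 for each, the smallest that 4 against 4 mice can give, and 0.091 after adjustment over 16 tests of 4 ratios chosen after the values were seen. The ratio of Rian to Meg3 after TAC was 0.601 ± 0.0507 with GFP and 0.704 ± 0.0392 with Cardinal (exact permutation p = 0.029, adjusted p = 0.091).

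Each lncRNA was compared with the summed levels of 3 marker lists over the 16 mice, as deviations from the group means, in 21 relations chosen after the data were seen. With p-values of Pearson's r adjusted over the 21, 0 passed 0.05. The lowest adjusted p was 0.0626, for H19 with fibroblast markers (r = -0.470, rho = -0.500, permutation p = 0.00298; r = -0.411 without 2 mice). By Spearman's rho the lowest adjusted p was 0.0542, for Mhrt with cardiomyocyte markers. Mhrt had r = 0.789 with cardiomyocyte markers (rho = 0.888, permutation p = 0.0150, adjusted p = 0.0788; r = 0.684 without the 2 mice farthest from the median), a list that holds Myh6. It had r = -0.558 with pressure overload markers (rho = -0.656). H19 had r = -0.710 with pressure overload markers (rho = -0.691, permutation p = 0.00809, adjusted p = 0.0650; r = -0.597 without 2 mice).

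Neat1 was highest in the mouse numbered 1 in 3 of the 4 groups. Meg3 and Malat1 were highest in that mouse in 2 groups, H19 in 1, and Mhrt, Rian and Mirg in 0. What the numbers mark is not given in the sources used here.

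The share of counts from mitochondrially encoded genes was 32.2% to 34.0% in sham and 30.3% to 31.9% in TAC hearts.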
